A study of Mus musculus with 22 samples.

Results

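The 44 genes described here encode the machinery of mitosis: the cyclins and phosphatases that start it, the kinases that run it, the spindle checkpoint, the kinetochore, the motors of the spindle and the proteins that divide the cell. They were taken by gene symbol from a list of mitotic genes, drawn up with earlier results of these data known, out of the 52636 genes of a table of RNA sequencing values, and each was found once. They were followed through 22 libraries of organoids grown from the duodenum of adult wild-type mice. Cold atmospheric plasma (CAP), a helium plasma jet run at 50 W for 60 s, was the treatment.

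The 4 untreated libraries came from organoid lines 1, 2, 3 and 4, which are named CD1, WT2, 1-20 and 2-20 in the labels, and each of the 6 treated groups holds 1 library of lines 1, 2 and 4. For direct CAP, plates of organoids met the jet itself at day 1 and kept their medium for another 30 min or 24 h before it was exchanged. For indirect CAP, medium was moved over from a different, treated culture. Plasma-activated medium (PAM) had been treated in the absence of organoids. Exposure to these media began at day 1 or day 2. By the study's methods the exposure lasted 24 h and cultures ended at day 3, so that organoids treated from day 1 had a day in fresh medium and those treated from day 2 had none. The labels give 0.5 h for the groups from day 1. By the paper's legends, media used from day 1 were fresh, and those used from day 2 had been made at day 1. Day of exposure, age of the organoid at exposure, age of the medium and recovery time therefore cannot be told apart. Lines 1 and 2 were at passage 12 and 14 and lines 3 and 4 at passage 4 by the labels, each line stands for 1 source of organoids, and the moment at which the 30 min group was collected is not certain. The paper's list gives the lines at passage 12 and 14 as from male mice. It gives the other 2 lines of that experiment as from females, at passage 2. By their correlation with treated libraries, the line labels of untreated lines 1 and 2 are in doubt. Counts above 0 against untreated are therefore also given without both libraries, and the counts of 0 against untreated stayed at 0 without them. The main fits do not use the line, so an exchange of these 2 labels would leave their counts unchanged. Fits against untreated with the line as a block do depend on these labels.

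Cells enter mitosis when cyclin-bound CDK1 becomes active. The checkpoint then holds the anaphase-promoting complex, a ubiquitin ligase, until every kinetochore is attached to the spindle, and CDC20 and UBE2C let that complex destroy securin and the B cyclins. The genes of this machinery are transcribed mainly in G2 and M phase, so in a bulk culture their RNA tracks dividing cells. In the intestine such cells are the crypt stem cells and the transit-amplifying cells above them. Fewer dividing cells and less of this RNA per cell cannot be told apart in these bulk libraries.

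Each value is a read count scaled by the authors to about 20 M per library and rounded up (the study's CP20M). Reads counted per library were estimated at 19.9 to 28.7 M, and all 44 genes passed the filter on low values in every comparison. The epithelial markers Epcam, Cdh1 and Krt8 were high in every library, with lowest values of 11396, 16409 and 28424. The 7 fibroblast markers together reached 13 to 45, and Lum was at 0 in all 22 libraries. The labels call the cells stem cells. The stem cell markers Lgr5 and Olfm4 ranged over the 22 libraries from 8 to 2822 and from 190 to 25431.

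Promoter sequences show one feature that many of these genes have in common. The CHR, a hexamer read TTTGAA, is known as the element through which the MuvB complex with B-MYB and FOXM1 times G2 and M phase genes, and the CCAAT box is known to bind NF-Y. The RefSeq table on GRCm38.p6 (250 bases before and 50 bases after each start) held 42 start regions for 37 of the 44 genes; Aurkb, Ccna2, Cdc25c, Foxm1, Incenp, Kif20a and Tpx2 were not matched. On either strand, TTTGAA occurred in 27 of 37 (73.0%), against 20.2% of 27025 genes in the table. CCAAT occurred in 27 of 37 (73.0%) against 41.1%, and both occurred in 22 of 37 (59.5%) against 7.97%. A CHR match and a CCAAT match shared a base in 1 gene, Cdca8. These are matches of letters in a window, not binding sites, and the genes were chosen for their role in mitosis.

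The 120 bases before the transcription start, or before the first annotated exon where that lies further out, are given for 8 genes to show the arrangement, in coding-strand orientation with TTTGAA and the CCAAT box (or their reverse complements) in capitals. Kif11 (chr19:37376262-37376381, plus strand), Top2a (chr11:99024190-99024309, minus), Cdk1 (chr10:69352939-69353058, minus), Cdc20 (chr4:118437353-118437472, minus) and Mki67 (chr7:135716380-135716499, minus) hold the CHR within the printed stretch. Ttk (chr9:83834569-83834688, plus) and Kif23 (chr9:61946800-61946919, minus), the genes with the most and the least negative log2 fold change in PAM from day 2, hold it just after the start. Nuf2 (chr1:169531465-169531584, minus) has no match to either motif in its 300 bases.
Kif11: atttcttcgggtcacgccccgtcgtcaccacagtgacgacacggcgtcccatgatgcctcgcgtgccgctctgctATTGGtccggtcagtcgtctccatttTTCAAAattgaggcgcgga
Top2a: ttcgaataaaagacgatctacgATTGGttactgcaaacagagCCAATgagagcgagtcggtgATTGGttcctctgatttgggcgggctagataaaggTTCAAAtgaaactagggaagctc
Cdk1: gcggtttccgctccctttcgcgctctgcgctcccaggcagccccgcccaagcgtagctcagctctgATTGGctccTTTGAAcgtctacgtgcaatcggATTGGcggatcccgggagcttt
Cdc20: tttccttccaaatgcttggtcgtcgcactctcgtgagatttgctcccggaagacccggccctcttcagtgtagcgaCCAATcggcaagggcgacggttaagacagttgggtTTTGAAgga
Mki67: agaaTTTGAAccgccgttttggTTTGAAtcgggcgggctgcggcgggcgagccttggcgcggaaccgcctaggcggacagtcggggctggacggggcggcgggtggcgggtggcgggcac
Ttk: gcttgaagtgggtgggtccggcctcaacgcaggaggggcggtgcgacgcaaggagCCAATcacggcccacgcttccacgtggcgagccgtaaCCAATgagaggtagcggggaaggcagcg
Kif23: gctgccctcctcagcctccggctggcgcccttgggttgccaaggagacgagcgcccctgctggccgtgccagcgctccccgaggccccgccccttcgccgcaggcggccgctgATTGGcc
Nuf2: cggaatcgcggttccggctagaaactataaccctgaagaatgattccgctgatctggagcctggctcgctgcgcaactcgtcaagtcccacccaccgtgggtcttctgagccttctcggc

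Counted from the start, the CHR of Kif11 begins at -19 and its CCAAT box at -45. In Top2a the nearer CHR begins at -23, behind CCAAT boxes at -98, -78 and -58. The CHR of Ttk begins at 8 and that of Kif23 at 3, so these 2 genes carry it at about the same place. Of the 27 genes with a CHR, 26 had a match in the stretch from 100 bases before to 50 bases after the start. This stretch is a large part of each start region, and positions of matches in other genes were not counted.

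**Figure D1:**
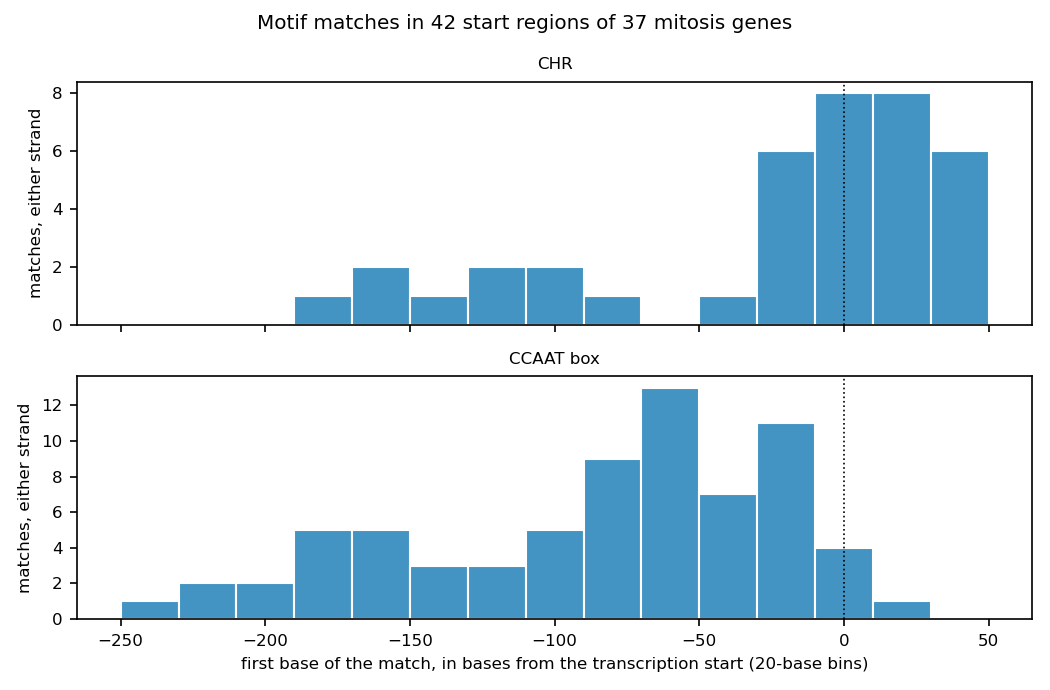
Number of matches to the CHR (top) and the CCAAT box (bottom) in 20-base bins against distance from the transcription start in bases, over 42 start regions of 37 mitosis genes, both strands. CHR matches crowd around the start, while CCAAT boxes lie mostly upstream of it.

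Genes with and without an exact match to the CHR in these start regions overlapped in the size of their change. Variants of the element and matches outside the regions were not counted. For the CCAAT box, the median log2 fold change in PAM from day 2 was -2.14 over the 27 genes with it and -2.38 over the 10 without. In PAM from day 2 the median log2 fold change against untreated was -2.17 (range -2.92 to -0.65) over the 27 genes with a CHR and -2.38 (range -2.71 to -1.22) over the 10 without one, which are Birc5, Bub1, Ccnb1, Cdc25b, Cenpe, Cenpk, Mad2l1, Nuf2, Nusap1 and Pttg1.

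In untreated organoids the 44 genes were evenly expressed across the 4 lines, with a median coefficient of variation of 9.95% (3.13 to 21.0%). Their values summed to between 56646 and 69840, or 0.321% ± 0.028 (SD, n = 4) of all values. Line 2 lay below the untreated mean for all 44 genes, by a median of 0.17 on the log2 scale. Per kilobase of exon, averaged over all 22 libraries, Cdc20 had the highest level (989), followed by Mki67 (636) and Plk1 (636), and the lowest were Ndc80 (34.0), Cdc25c (29.8) and Cenpk (18.7).

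The sum over the 44 genes was lowest with PAM from day 2. It was 62686 ± 9817 (SD, n = 3) in the direct 30 min group, 47972 ± 5112 in the direct 24 h group and 51057 ± 7197 with indirect CAP from day 1. It was 35951 ± 8787 with PAM from day 1, 25000.0 ± 2756 with indirect CAP from day 2 and 16021 ± 6173 with PAM from day 2, against 64242 ± 5514 (n = 4) in untreated organoids. The mean was lower in PAM from day 1 than in the direct 24 h group for 44 of 44 genes, lower in indirect CAP from day 2 than in PAM from day 1 for 43, and lower again in PAM from day 2 for 44. Pairs of the 44 genes had a median correlation of 0.967 over the 22 libraries (0.776 to 0.995), and of 0.83 (0.247 to 0.984) once group means were removed; these libraries share lines and treatments, so this is a description only. Kif23 was least like the rest, with a median correlation of 0.837.

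**Figure D2:**
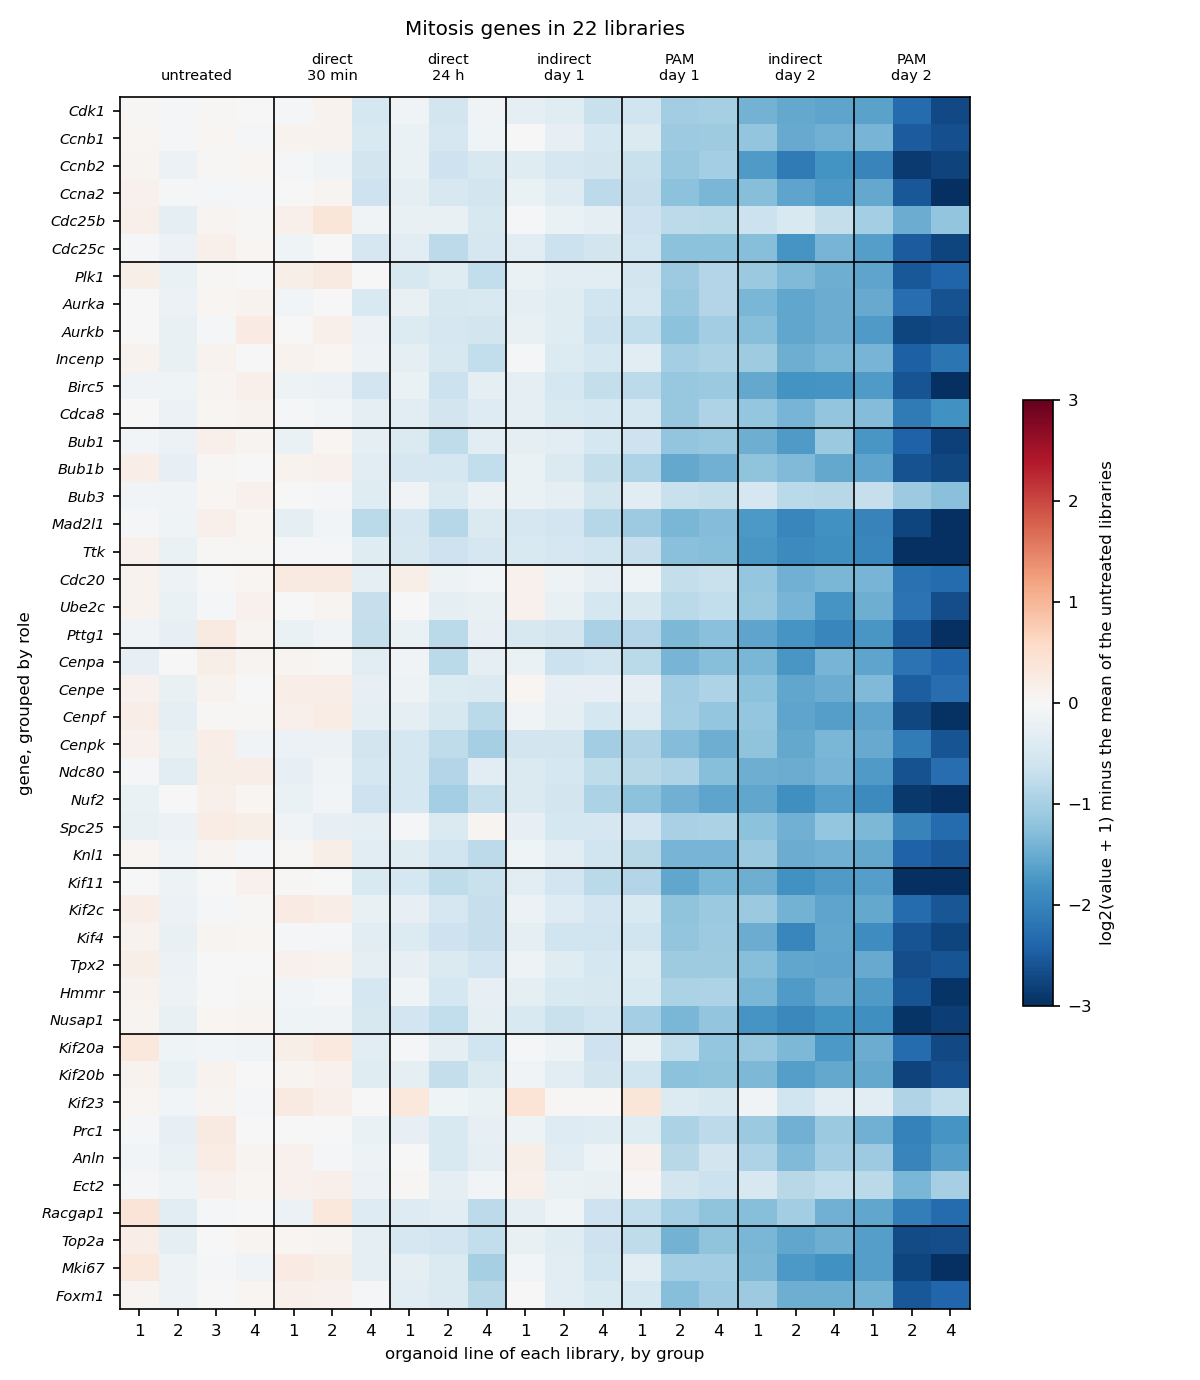
Heat map of 44 mitosis genes (rows, grouped by role, black lines between roles) in 22 libraries (columns, by group, labelled by organoid line). Colour is log2(value + 1) minus the mean of the 4 untreated libraries; every gene is blue in PAM from day 2, and line 1 is the palest of the 3 there.

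PAM from day 2 gave the largest change. Relative to untreated, 43 of 44 genes fell past the threshold, set at 0.01 for the limma p after Benjamini-Hochberg adjustment together with a 2-fold difference (1 on the log2 scale). Of all 17694 genes tested, 10.5% fell past it. The median log2 fold change was -2.19 (-2.92 to -0.65), against -0.12 over all genes tested, and the group mean stood at 14.7 to 64.4% of untreated (median 22.8%). For all 44 genes the 3 treated libraries lay below all 4 untreated libraries, an ordering met by 32.6% of all genes, and all 44 had an unadjusted p under 0.05 (33.4% of all genes were lower at that level). Without both doubtful untreated libraries, 3 libraries against 2, the count was 0 (0.00583% of all genes, or 1 gene, fell) and the median -2.22. With so few genes called at all, this count cannot tell whether the 44 genes changed. Lines differed: the median gene stood at 34.2% of untreated in line 1, 17.7% in line 2 and 16.1% in line 4.

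Among the genes of mitotic entry, Ccna2 (cyclin A2, chr3:36564865-36572150) had values of 2891, 2511, 2583 and 2535 in untreated lines 1 to 4 and of 910, 448 and 295 in lines 1, 2 and 4 with PAM from day 2. The highest treated value is far under the lowest untreated one, and the log2 fold change was -2.41 ± 0.32 (SE; adjusted p = 0.000886, limma). All 6 genes of this role fell. The log2 fold change was -2.21 for Cdk1, -2.18 and -2.54 for its partners Ccnb1 and Ccnb2 (B cyclins) and -2.30 for the phosphatase gene Cdc25c. Cdc25b, which encodes another phosphatase that activates CDK1, had the smallest change of the role (-1.22).

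Among the mitotic kinases, Plk1 (polo-like kinase 1, chr7:122159439-122169873) had untreated values of 2233, 1729, 2022 and 1967 and PAM day 2 values of 658, 341 and 376. The groups are well apart, with a log2 fold change of -2.17 ± 0.22 (adjusted p = 0.000400). The genes of the chromosomal passenger complex, the Aurora B kinase and its partners that correct faulty attachments, all fell, with values of -2.44 for Birc5 (survivin), -2.38 for Aurkb, -2.01 for Incenp and -1.75 for Cdca8 (borealin). Aurka, the kinase of the spindle poles, fell too (-2.14).

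The spindle checkpoint held the widest spread. Ttk (the MPS1 kinase that starts checkpoint signalling, chr9:83834689-83872389) had untreated values of 537, 423, 502 and 499, and 125, 41 and 50 in PAM from day 2. Its mean was 14.7% of untreated, the lowest of the 44 genes (log2 fold change -2.92 ± 0.35, adjusted p = 0.000574). Mad2l1 (MAD2, the inhibitor that binds CDC20, chr6:66535390-66547220) went from 994, 946, 1150 and 1077 to 260, 153 and 115 (-2.64 ± 0.25, adjusted p = 0.000347). In Bub1b (BUBR1, chr2:118598211-118641591) the values were 1737, 1280, 1553 and 1514 untreated, and 506, 247 and 227 treated (-2.31 ± 0.27, adjusted p = 0.000532). Bub3 (chr7:131560222-131571895), whose protein brings BUB1 and BUBR1 to kinetochores, fell far less, from 1531, 1519, 1692 and 1785 to 1014, 768 and 685 (-1.0 ± 0.14, adjusted p = 0.00114). Bub3 sat at the minimum fold change and did not pass under quantile normalization (-0.85), with a pseudocount of 10 (-0.996) or with the line as a block (-0.99). The block relies on the doubtful line labels of 2 untreated libraries.

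Of the partners of the anaphase-promoting complex, Cdc20 (chr4:118432901-118437352) had values of 2552, 2119, 2382 and 2464 untreated and 903, 501 and 476 in PAM from day 2. The groups do not overlap (-1.98 ± 0.21, adjusted p = 0.000434). Ube2c (-2.11) and Pttg1 (securin, -2.5) fell as well.

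All 8 centromere and kinetochore genes fell. Nuf2 (a subunit of the NDC80 complex that grips microtubules, chr1:169497934-169531464) had 473, 544, 603 and 570 untreated and 144, 73 and 53 in PAM from day 2, a drop to 16.4% of untreated (-2.71 ± 0.30, adjusted p = 0.000483). Cenpa (the histone H3 variant of centromeres, chr5:30666777-30674830) went from 834, 985, 1116 and 1038 to 328, 211 and 187 (-2.07 ± 0.20, adjusted p = 0.000369). The other 6 had log2 fold changes between -2.43 (Cenpf) and -1.88 (Spc25).

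All 6 spindle motor and assembly genes fell, with values from -2.56 (Kif11, the motor that pushes spindle poles apart) to -2.13 (Kif2c). Tpx2 (the activator of Aurora A on the spindle, chr2:152847964-152895321) had values of 1481, 1169, 1312 and 1330 untreated and 464, 208 and 218 treated (-2.25 ± 0.27, adjusted p = 0.000570). Its treated values are also highest in line 1.

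Genes of the midzone and cytokinesis changed least as a role, with a median log2 fold change of -1.75, and 6 of 7 fell. Kif23 (the MKLP1 motor of centralspindlin, chr9:61915905-61946774) was the one gene of the 44 that did not pass, because of its size of change. It had 1532, 1384, 1538 and 1400 untreated and 1169, 786 and 871 in PAM from day 2 (log2 fold change -0.65 ± 0.14, adjusted p = 0.00653). Ect2 (the exchange factor that activates RhoA for the contractile ring, chr3:27097222-27153878) went from 1864, 1783, 2128 and 2022 to 1118, 756 and 979 (-1.05 ± 0.14, adjusted p = 0.000925). The other members fell further, Kif20b (-2.32), Kif20a (-2.17), Racgap1 (-1.98), Prc1 (-1.75) and Anln (anillin, -1.57). The proteins of Kif23 and Ect2 act together with that of Racgap1, the other subunit of centralspindlin.

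Of the last role, Mki67 (the proliferation marker Ki-67, chr7:135689784-135716361) had 11723, 8402, 8959 and 8756 untreated and 2959, 1382 and 1121 treated (-2.50 ± 0.30, adjusted p = 0.000627). Top2a (topoisomerase II alpha, -2.33) and Foxm1, a transcription factor of the G2 and M phase genes (-2.12), also fell.

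**Figure D3:**
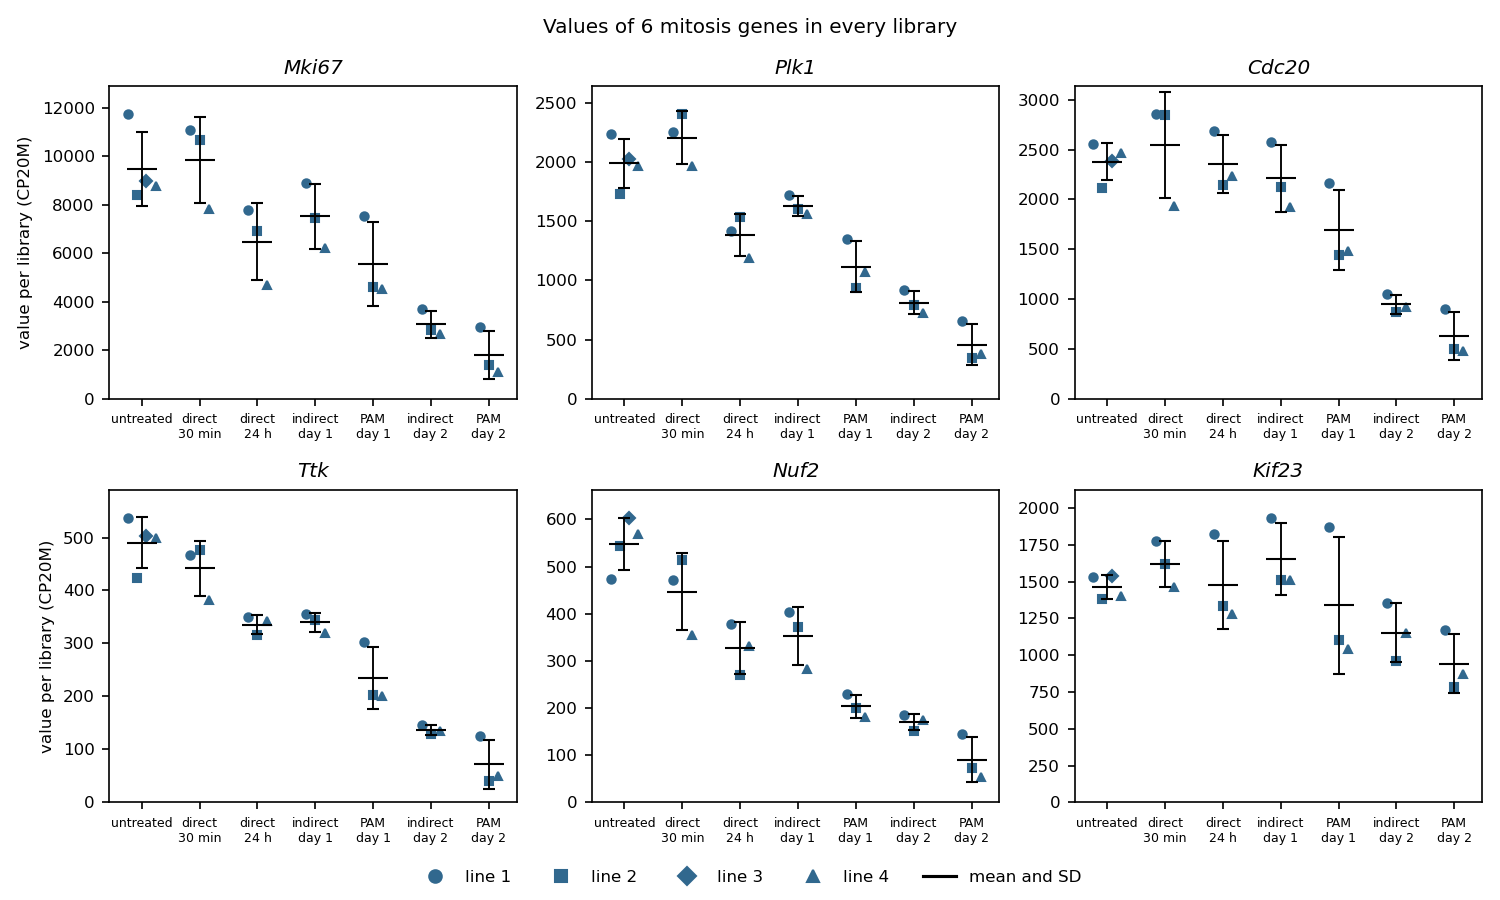
Values (CP20M, axis from 0) of Mki67, Plk1, Cdc20, Ttk, Nuf2 and Kif23 in each of 22 libraries by group; symbols give the organoid line, and bars the mean and SD of the group. Kif23 in line 1 is above every untreated value in the 4 groups treated from day 1 (1776 to 1932).

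Indirect CAP from day 2 moved nearly the same number of genes, by less. Of the 44 genes 40 fell, against 5.71% of 17860 genes tested, with a median log2 fold change of -1.43 (-1.87 to -0.36) against -0.01 over all genes. Bub3 (-0.71 ± 0.10), Ect2 (-0.68 ± 0.10), Cdc25b (-0.61 ± 0.12) and Kif23 (-0.36 ± 0.12) did not pass. For all 44 genes the 3 libraries lay under the 4 untreated ones, an ordering met by 25.8% of all genes, and all 44 had an unadjusted p under 0.05 (27.4% of all genes were lower at that level). Ccnb2 (cyclin B2) changed most, by -1.87 ± 0.12 (adjusted p = 4.18e-05), followed by Nusap1, a microtubule-bundling protein, at -1.84 and Mad2l1 at -1.83.

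The 3 lines were close in this group. Ttk was at 146, 129 and 135 in lines 1, 2 and 4, Nuf2 at 185, 152 and 174, and Cdc20 at 1055, 867 and 923. Median gene levels were 41.5, 34.2 and 35.8% of untreated. Without both doubtful untreated libraries the count was still 40 (3.66% of all genes fell).

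With PAM from day 1, 17 of 44 genes fell, against 5.4% of 17357 genes tested, and the median log2 fold change was -0.93 (-1.42 to -0.18) against -0.13 over all genes. In 40 of 44 genes the 3 libraries lay under all untreated ones (29.7% of all genes), and 42 had an unadjusted p under 0.05 (31.9% of all genes were lower at that level). By role, 5 of 8 centromere and kinetochore genes, 3 of 5 checkpoint genes, 2 of 6 each of the entry, kinase and spindle genes, 1 of 3 anaphase-promoting complex partners, 1 of 7 cytokinesis genes and 1 of 3 genes of the last role passed. Nuf2 changed most, at 230, 200 and 181 in lines 1, 2 and 4 (-1.42 ± 0.13, adjusted p = 0.000183), then Bub1b (-1.30 ± 0.16) and Kif11 (-1.27 ± 0.16).

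Cdc20 was at 2162, 1438 and 1482 (-0.51 ± 0.15), Mki67 at 7547, 4598 and 4519 (-0.80 ± 0.20) and Kif23 at 1872, 1100 and 1042 (-0.18 ± 0.19), and these did not pass. Line 1 was inside the untreated range for Cdc20, above it for Kif23 and below it for Mki67, while lines 2 and 4 were below it for all 3 genes. Line 1 was the highest of the 3 for all 44 genes, with the median gene at 66.6% of untreated against 45.6% in line 2 and 46.9% in line 4. The count rested on single libraries: it was 30 without line 1 of PAM from day 1 (5.59% of all genes fell), 11 without line 2 (5.71%) and 10 without line 4 (3.78%), and 12 without both doubtful untreated libraries (2.79%). With an adjusted p under 0.01 and no minimum fold change, 37 of 44 passed, against 15.9% of all genes that were lower at that setting.

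**Figure D4:**
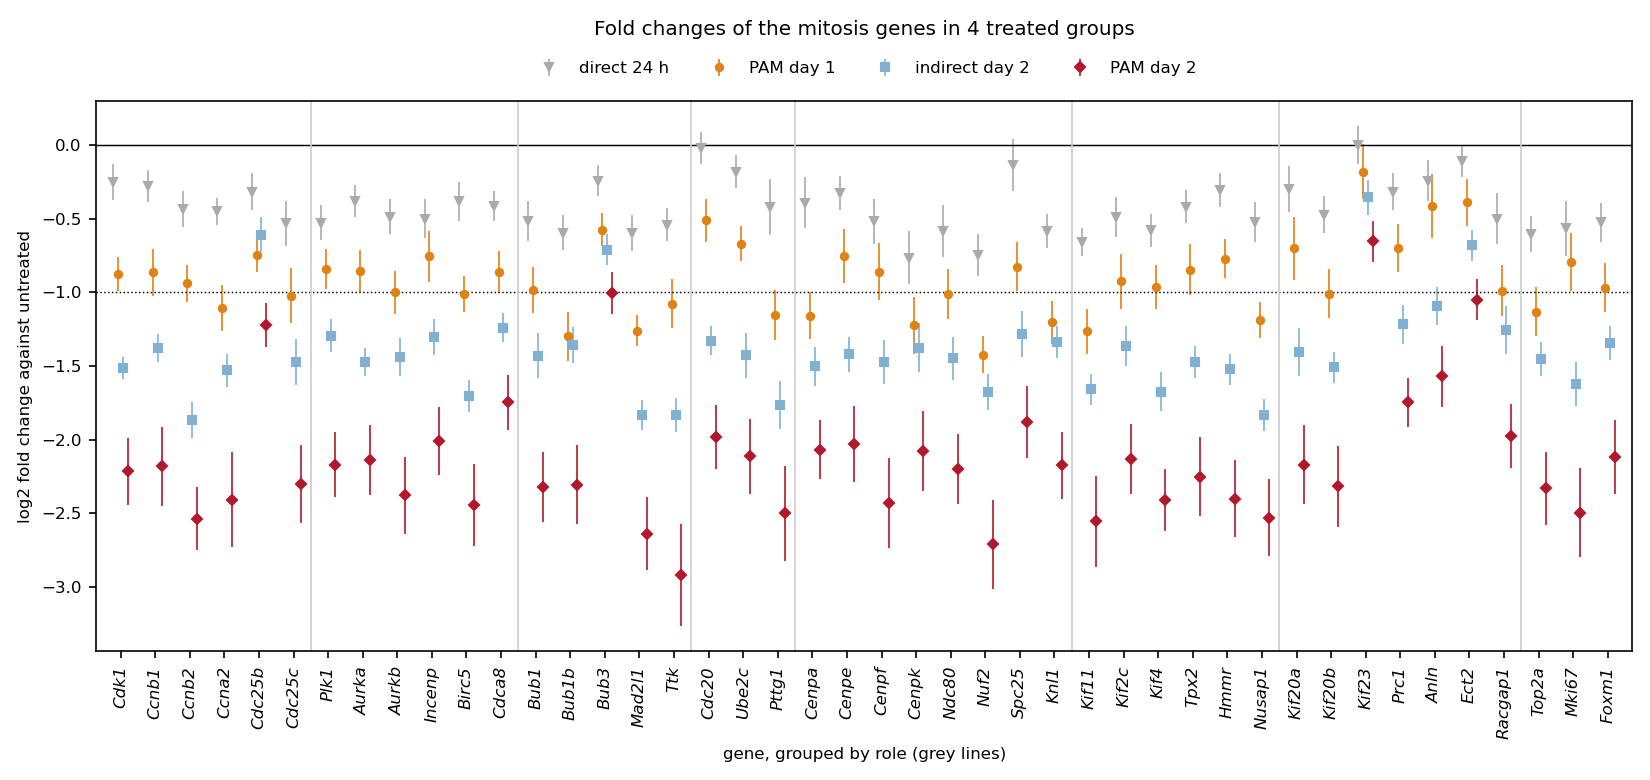
Log2 fold change against untreated (y axis, bars are standard errors) of the 44 mitosis genes (x axis, by role) in the direct 24 h group, PAM from day 1 and both media from day 2; the dotted line marks the minimum fold change of the threshold. PAM from day 2 is lowest for every gene, and Bub3, Cdc25b, Ect2 and Kif23 stand above their neighbours in both groups from day 2.

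After direct CAP for 24 h none of the 44 genes passed (background 0.917% of 17335 genes), although all 44 had a negative fold change. The median was -0.46 (-0.77 to -0.00) against -0.08 over all genes, 34 had an unadjusted p under 0.05 (19.8% of all genes were lower at that level), and in 31 the treated libraries lay under all untreated ones (19.1% of all genes). With an adjusted p under 0.05 and no minimum fold change 23 of 44 would pass, all lower, against 10.2% of all genes. Nuf2 was at 379, 270 and 332 (-0.75 ± 0.14, adjusted p = 0.0119) and Ttk at 349, 316 and 342 (-0.54 ± 0.11, adjusted p = 0.0166). Cdc20, at 2683, 2145 and 2231, and Kif23, at 1823, 1331 and 1282, had their line 1 library above every untreated value.

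Indirect CAP from day 1 gave values close to these. None of the 44 genes passed (background 0.477% of 17818 genes), 43 had a negative fold change, and the median was -0.39 (-0.72 to 0.16) against 0.00 over all genes. At an unadjusted p under 0.05 there were 32 genes (18.9% of all genes were lower at that level), and 19 had an adjusted p under 0.05 (10.4%). Kif23 was the gene with a positive value (0.16 ± 0.10, adjusted p = 0.275), at 1932, 1510 and 1508 in lines 1, 2 and 4.

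These 2 groups and PAM from day 1 were also pooled as 9 libraries. By the study's methods they were exposed for 24 h from day 1 and then had a day in fresh medium until day 3. The pool gave a median of -0.59 (-0.94 to -0.01), with all 44 negative and none past the threshold (background 2.07% of 18490 genes). Of the 44, 40 had an unadjusted p under 0.05 (25.1% of all genes were lower at that level), and 35 had an adjusted p under 0.05 (18.7%). These 9 libraries come from 3 lines, each used 3 times, and libraries of the same line resembled each other, so they are not 9 independent samples as this fit takes them to be. With the line as a block 0 passed as well, but that fit relies on the doubtful labels of untreated lines 1 and 2. Nuf2, the lowest, was at -0.94 ± 0.20 (adjusted p = 0.00326), and would pass if line 1 of the untreated libraries or of indirect CAP from day 1 were left out.

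After direct CAP for 30 min none of the 44 passed (0% of 17731 genes fell past the threshold), 2 had an unadjusted p under 0.05 (11% of all genes were lower at that level), and the median was -0.08 (-0.39 to 0.15), with 31 negative. Lines 1 and 2 stood at 101 and 105% of untreated in the median gene and line 4 at 78.7%, line 4 being the lowest of the 3 for all 44 genes. Mad2l1 had the most negative value (-0.39 ± 0.16, adjusted p = 0.182) and Plk1 the most positive (0.15 ± 0.11, adjusted p = 0.405), with values of 2250, 2401 and 1965 in lines 1, 2 and 4.

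Comparisons between treated groups asked whether the way or the day of treatment mattered. None of the 44 genes passed in any of the 7 comparisons, in which 0 genes in all fell past the threshold (0% each). These comparisons share libraries with one another and with those above. The main fits leave out the line, although each line is in both groups compared. With 0 genes called as lower at all, these counts cannot tell whether the way or the day of treatment mattered. With PAM from day 2 against indirect CAP from day 2, all 44 genes were lower, by a median of 0.75 on the log2 scale (range of the differences -1.09 to -0.29), 29 had an unadjusted p under 0.05 (8.55% of all genes), and every adjusted p was at least 0.523. In PAM from day 1 all 44 were lower than in direct CAP for 24 h (median -0.48, 26 with an unadjusted p under 0.05 against 7.01%) and than in indirect CAP from day 1 (median -0.51, 35 against 16.8%). Indirect CAP from day 1 and direct CAP for 24 h differed by a median of 0.04 (-0.29 to 0.26), with 0 genes at an unadjusted p under 0.05 (1.52% of all genes were lower at that level). Direct CAP for 24 h against 30 min gave a median of -0.33, with 42 of 44 negative and 17 at an unadjusted p under 0.05 (15% of all genes).

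Between days, indirect CAP from day 2 was lower than from day 1 in all 44 genes (median -1.06, range -1.39 to -0.38), all 44 with an unadjusted p under 0.05 (12.6% of all genes) and 39 with an adjusted p under 0.05 (2.21%). A fit with the line as a block (replicate block) called 28 of the 44 and 2.31% of all genes as lower, among them Ccnb2 (-1.39), Ttk (-1.31) and Mki67 (-1.29), and a fit of all 7 groups together called 7 (0.222% of all genes). PAM from day 2 against day 1 gave a median of -1.29 (-1.84 to -0.43), with 42 of 44 at an unadjusted p under 0.05 (14.1% of all genes), 0 past the threshold with or without the block, and 35 past it with all 7 groups in one fit (2.82% of all genes). Ttk had the most negative difference there (-1.84 ± 0.43, adjusted p = 0.0696) and Bub3 the smallest (-0.43 ± 0.18, adjusted p = 0.191).

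The organoid line went with the level of these genes within the treated groups. Line 1 held the highest value of the 3 lines for all 44 genes in both PAM groups, for 42 in indirect CAP from day 1, 39 in indirect CAP from day 2 and 34 in the direct 24 h group. After direct CAP for 30 min line 2 was highest for 26 and line 1 for 18. With 1 library of each line in a group, this has no replicate, and line, passage, sex of the mouse and source of the organoids cannot be told apart. The share of all genes that were highest in line 1 was not computed. Since the 44 genes vary together within groups, these counts are not read as particular to them.

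Other genes of the cell cycle changed too, and the counts of the lists below stand against the 10.5% of all genes that fell in PAM from day 2. In PAM from day 2, DNA replication genes fell in 38 of 47, with a median of -2.0, led by Dut (-3.11), which keeps uracil out of DNA, and Mcm4 (-2.88), a subunit of the replicative helicase. Orc3 (0.12) and Orc4 (0.15), subunits of the origin recognition complex, did not pass. The sum over the 44 genes divided by the sum over the replication genes lay between 1.06 and 1.1 in untreated organoids, 1.12 and 1.26 after direct CAP for 24 h or indirect CAP from day 1, and 0.785 and 1.01 with PAM from day 2.

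Further kinetochore and centromere genes fell in 25 of 34 (median -1.52), led by Cenpm (-3.17) and Cenph (-2.74) of the inner kinetochore, while Cenpb (0.04), which binds centromeric repeats, and Mad2l2 (0.47) did not pass. Further spindle and cytokinesis genes fell in 25 of 38 (median -1.75). Pimreg was lowest (-4.22), at a mean of 3 against 72.3, followed by the spindle motor gene Kif15 (-2.83). At the other end were Ndel1 (0.85), which regulates dynein, and Kif3b (0.95), a subunit of a transport kinesin also used in interphase; Kif3b had an adjusted p of 0.000338 but missed the minimum fold change.

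The ubiquitin ligase itself changed less than its partners. Of 17 genes of the anaphase-promoting complex 5 fell (median -0.51), with Fbxo5 (-2.58), an inhibitor of the complex that is made in S and G2 phase, and Anapc13 (-1.39) lowest and Anapc16 (0.19) and Anapc2 (0.40) highest. Condensin and cohesin genes fell in 12 of 21 (median -1.13), led by Esco2 (-2.73) and Cdca5 (-2.36), both needed for cohesion in S phase, with Wapl (0.09) and Mau2 (0.17) not past the threshold.

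Genes of the MuvB, E2F and pocket protein list fell in 9 of 19 (median -0.97), led by E2f1 (-2.54) and E2f8 (-2.49), with E2f5 (0.00) and Rb1 (0.43) highest. The G1 cyclins and kinases fell in 4 of 8 (median -1.13), Ccne1 (-2.14) and Cdk2 (-1.71) among them, whereas Ccnd1 (-0.36) and Cdk6 (-0.30), which act early in G1, did not pass. Kinases and phosphatases that restrain or reverse CDK1 fell in 4 of 15 tested (median -0.18), led by Mastl (-2.31), the kinase known as Greatwall that in fact sustains mitosis, and Chek1 (-1.62), with Ppp2r2d (0.50) and Ppp2r2a (0.56) highest.

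CDK inhibitors and p53 targets went both ways, with 6 of 20 higher and 4 lower past the threshold (median 0.47; 6.82% of all genes rose past it). Plk3 (2.88) and Plk2 (2.01), stress-responsive relatives of Plk1, rose most, from a mean of 236 to 1766 and from 629 to 2785. Cdkn2c (-2.64), an inhibitor of CDK4 and CDK6, and Trp53 itself (-1.06) fell. In direct CAP for 24 h, where none of the 44 mitotic genes passed, 7 of these 20 were higher past the threshold (1.25% of all genes rose past it) and 0 lower.

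**Figure D5:**
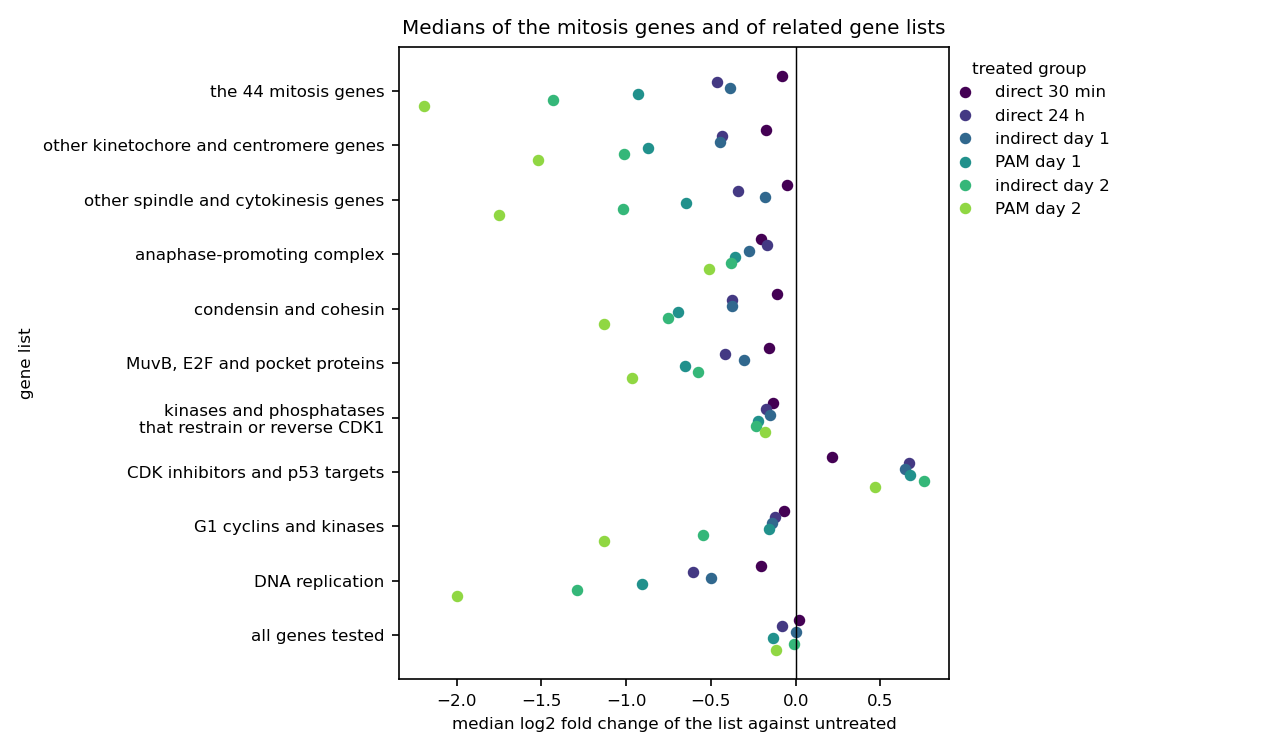
Median log2 fold change against untreated (x axis) of the 44 mitosis genes, 9 related gene lists and all genes tested (y axis), 1 point for each of 6 treated groups. The 44 genes and the DNA replication list reach about -2 in PAM from day 2, while CDK inhibitors and p53 targets lie above 0 in every group.

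Markers of crypt stem cells moved with these groups. The summed value of 5 of them (Lgr5, Olfm4, Ascl2, Axin2 and Smoc2) lay between 32557 and 38876 in untreated organoids, 5313 and 10861 after direct CAP for 24 h, 1306 and 2640 with PAM from day 1, and, from day 2, 2703 and 3953 with indirect CAP and 757 and 2747 with PAM. All 5 fell past the threshold in each of the last 3 groups and 2 of 5 after direct CAP for 24 h. PAM from day 1 had lower stem cell marker sums than indirect CAP from day 2 in all 3 lines, but higher sums of the 44 mitotic genes (30523 to 46089 against 23187 to 28171). The sum of 8 enterocyte markers lay between 98664 and 118389 untreated and 134972 and 182388 with PAM from day 2, where 1 of 8 was higher past the threshold, 0 were lower and the median log2 fold change was -0.42. With indirect CAP from day 2 the enterocyte sum was 99171 to 119607, 2 of 8 were lower past the threshold and 1 higher, and the median was -0.88. The sum of 8 goblet, Paneth, tuft and enteroendocrine markers lay between 31514 and 45741 untreated and 7365 and 26070 with PAM from day 2, where 0 of 7 tested passed in either direction (median -1.14). The part of the cell type mix in the change of the mitotic genes was not tested.

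Some of the 44 genes share sequence with others in the GENCODE vM21 transcripts. Of the 100-base windows of Ccnb1, 14.9% also occur in its pseudogene copies. On the opposite strand, part of the exons of Kif20a overlaps Cdc23 (21.4% of windows), Kif4 overlaps Pdzd11 (13.3%), Ccna2 overlaps Exosc9 (10.1%) Cdc25c overlaps Gm3550 (10.2%), Prc1 overlaps Rccd1 (6.77%) and Ube2c overlaps Tnnc2 (6.16%). Whether reads were counted by strand is not given in the sources used here, so values of these genes may hold reads of their partner. No other gene of the 44 shared more than 3.38% of its windows.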

How the data were processed

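RNA of mouse duodenal organoids was sequenced as 22 libraries of paired reads. Per the labels and the paper's methods, the authors trimmed reads with Trimmomatic 0.36, aligned them to GRCm38 with STAR 2.5.3a, counted them on Ensembl genes with HTSeq 0.9.1 and tested them with edgeR. The deposited unit is a score: counts scaled by the authors to 20 M per library and rounded up. The paper defines it per kilobase, but the deposited values were not divided by length. The number of reads per library was estimated from the spacing of low values; in 12 simulations the largest error was 1.56%. At this depth a value of 10 stands for about 10 to 14 reads.

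limma 3.58.1 (R 4.3.3, moderated test with a trend) was run on log2(value + 1) of genes with a value of at least 10 in 3 libraries of the fit, with p adjusted over all genes tested. Fold changes are on the log2(value + 1) scale. Only the groups compared entered a fit, without a block, and calls were made at 0.01 after adjustment with at least a 2-fold difference (1 on the log2 scale). On simulated data with 200 changed genes, 200 were found in each of 3 designs (24 h from day 1 against untreated, 17923 genes; direct 30 min against untreated, 17358; direct 24 h against direct 30 min, 18167), with 1, 0 and 2 false calls. In the real libraries of the last design, direct 24 h against direct 30 min, 0 of 17668 genes fell past the threshold. How often a difference of any size, near the 2-fold limit or larger, would be found in the real libraries was not tested. Counts of 0 in the real libraries are therefore not read as absence of change. Count tests were not run, as the values are not counts. No exact permutation test of 3 libraries against 3 or 4 can go below 0.1 or 0.0571. Replicates are organoid lines, and p-values measure the spread between libraries of 3 or 4 lines; in the comparison of 9 libraries from day 1, each treated line enters 3 times.

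Groups were taken from the labels. Libraries with the same number come from the same line. After removing group means, the median correlation was 0.536 over 63 pairs of the same line (-0.05 to 0.81) and -0.31 over pairs of other lines; among treated libraries the lowest of 45 pairs of the same line was 0.219. The untreated libraries of lines 1 and 2 resembled each other's treated libraries (0.541 and 0.353) more than their own (0.0751 and 0.132), so their labels are in doubt. Gene positions came from GENCODE vM21, which held 52489 of 52636 genes (99.7%), and promoters from RefSeq on GRCm38.p6. Figures were drawn with matplotlib 3.10.9.

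The 44 genes, the gene lists and the tests were chosen with earlier results of these data known. Values per library are given, for each role, for the gene with the highest mean value per kilobase and for the 3 lowest and 3 highest log2 fold changes in PAM from day 2; of each other list, the 2 lowest and 2 highest are named, and other genes of the 44 by their fold change. The promoters printed and the genes ranked within other comparisons were picked after their values were seen. Alternatives were a fit of all 7 groups together, the line as a block, quantile normalization, keeping low genes, a pseudocount of 10, dropping the fold limit at an adjusted p of 0.05, and leaving out each library. Dropping the fold limit at 0.01, and leaving out both doubtful untreated libraries, were added after seeing the data.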

Additional observations from a re-analysis of the deposited data

Results flagged for a closer look

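Of the 44 genes, 4 had 1 untreated library far from the other 3, where the gap to the nearest library took up most of the range over the 4; chance flags about 1 in 20 groups. Kif20a (1760) and Mki67 (11723) stood highest in line 1, and Kif4 (950) and Nusap1 (665) stood lowest in line 2. Both lines are those whose untreated labels are in doubt, but an exchange of these labels would leave the flags unchanged. The share of all genes flagged was not computed, and the 44 genes vary together. The count of 4 is therefore not read as a result about them.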

How the results depend on the processing

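In the comparisons of PAM and of indirect CAP from day 2 with untreated, the number of the 44 genes past the threshold (43 and 40) stayed within 40 to 43 and 39 to 40 over the replicate block, one fit of all 7 groups, quantile normalization, keeping low genes, a pseudocount of 10 and leaving out each library (41 to 43 and 39 to 40). The exception was leaving out both untreated libraries in doubt, lines 1 and 2, which leaves 3 libraries against 2: PAM from day 2 then gave 0 (median log2 fold change -2.22), while indirect CAP from day 2 gave 40. In that PAM fit only 1 of all genes tested fell, so its count of 0 cannot tell whether the 44 genes changed. Quantile normalization moved the median of all genes in PAM from day 2 from -0.12 to 0.00 and that of the 44 genes from -2.19 to -1.97.

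In PAM from day 1 the 17 genes became 11 with quantile normalization, 41 with an adjusted p under 0.05 and 37 with one under 0.01, both with no minimum fold change, and 10 to 30 on leaving out each library. With no minimum fold change, an adjusted p under 0.05 gave 35 genes for the pooled comparison from day 1, 23 for direct CAP for 24 h, 19 for indirect CAP from day 1 and 39 for indirect CAP from day 2 against day 1, and one under 0.01 gave 13 for the pooled comparison and 1 (Kif11) for direct CAP for 24 h, all from 0. Leaving out each library gave 0 to 1 in the pooled comparison (Nuf2, without untreated or indirect line 1) and 0 in the other comparisons with no call. The line as a replicate block gave 28 for indirect CAP from day 2 against day 1, and all 7 groups in one fit gave 7 there and 35 for PAM from day 2 against day 1; in no other comparison did the block move the count by over 1.5 times. The causes were not tested.

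Near 0, signs turned. The log2 fold change of Kif23 in the pooled comparison (-0.01) became 0.0460 with quantile normalization and 0.0186 with the replicate block, and ran from -0.0569 to 0.0544 on leaving out each library. In direct CAP for 24 h that of Kif23 (-0.00) became 0.0403 and 0.0225 and ran from -0.162 to 0.0917, and that of Cdc20 (-0.02) became 0.0142 with quantile normalization and ran from -0.118 to 0.0437.

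Counting error is relatively larger at low values, such as those of Ttk (41 and 50) and Nuf2 (53) in PAM from day 2.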
